A study of Mus musculus with 7 samples.

Results

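The proteasome genes of sorted mouse spleen cells were followed from naive B cells to LPS-induced plasmablasts and plasma cells. Members were the array probes whose gene symbol on the platform starts with Psma, Psmb, Psmc, Psmd, Psme, Psmf or Psmg plus a digit, and whose signal was above background (detection p under 0.01) on at least 2 arrays. This rule found 58 probes of 42 genes, among 10113 named probes of 7425 genes that passed the same filter. Of the 42 genes, 40 encode proteasome subunits, activators or assembly chaperones. The other two, Psmc3ip and Psme3ip1, carry matching symbols but encode partners of other proteins, and they are given apart. Before the background filter the rule matched 67 probes of 45 genes. The only probes of Psma1, Psma6 and Psmc6 were above background on 0 of 7 arrays, so these core and ATPase subunits were not measured. Psma8, Psmb11, Psmd3, Psmg4 and the inhibitor gene Psmf1 had no probe named for them in the platform table used here.

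The 7 samples were spleen cells of 10-week-old female C57Bl/6J mice, with 1 Illumina single-colour bead array each. The control agent group held 2 samples of naive B cells, sorted as B220+ CD43-. The LPS group, taken at day 3, held 3 samples of plasmablasts (B220mid CD138+) and 2 samples of plasma cells (B220low CD138+). LPS is bacterial lipopolysaccharide, which drives B cells to divide and to secrete antibody. The labels do not say whether samples came from separate animals, so the spread behind each p-value may be technical.

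The proteasome is the protease of the cytosol and nucleus that degrades proteins tagged with ubiquitin, among them misfolded proteins pulled back out of the endoplasmic reticulum. Its barrel-shaped core particle is built of alpha rings, which gate the entry, and beta rings, which hold the catalytic sites. A regulatory particle of ATPases and non-ATPases binds, unfolds and feeds in substrates, and separate activators can cap the core in its place. In lymphocytes the catalytic subunits Psmb5, Psmb6 and Psmb7 can be replaced by the immunoproteasome subunits Psmb8, Psmb9 and Psmb10, which are induced by interferon and change which peptides are cut for MHC class I. Proteasome inhibitors kill malignant plasma cells, a therapy in use for multiple myeloma.

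Levels below are normalized log2 signals (background-corrected, quantile normalized). Differences are differences of group means on that log2 scale with the standard error (SE) of a limma fit over all 7425 genes, and calls required a p under 0.05 after Benjamini-Hochberg adjustment over those genes. Because probes differ in how brightly they bind, each gene was compared only with itself across the groups. Arrays had 8817 to 9930 of 25697 probes above background. Of the 40 proteasome genes, 39 were above background on all 7 arrays. The exception was Psmd6, above background on 1 of the 2 naive B cell arrays. Median within-group standard deviations (SD) of the 40 genes were 0.04 in naive B cells, 0.07 in plasmablasts and 0.06 in plasma cells. In bulk RNA, fewer cells of a type and less RNA per cell cannot be told apart.

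Defining markers of the labelled cells were present, with exceptions among the plasma cell markers, and transcripts of other cells were measured too. The plasma cell gene Sdc1 (CD138) stood at 5.82 ± 0.09 (SD, n = 2) in naive B cells, below background, at 9.63 ± 0.15 (n = 3) in plasmablasts and at 9.67 ± 0.26 (n = 2) in plasma cells. All 6 tested markers of antibody-secreting cells were above background on every plasmablast and plasma cell array, and 3 of 4 tested naive B cell markers (Fcer2a, Cr2 and Cd22) were below background on both plasma cell arrays. Against the plasma cell label, the transcription factor genes Prdm1 and Irf4 were 3.15-fold and 2.64-fold lower in plasma cells than in plasmablasts (adjusted p = 1.68e-05 and 2.23e-06), and Irf4 was not called above naive B cells (0.22, adjusted p = 0.0519). The 12 tested markers of macrophages and neutrophils had a summed linear signal of 24772 to 29674 on the naive B cell arrays, 2430 to 6537 on the plasmablast arrays and 59449 to 60701 on the plasma cell arrays. On the plasmablast arrays 9 of the 12 were below background throughout, and on the plasma cell arrays 1 (Vcam1). The members did not all follow the sum. Against naive B cells, 7 of the 12 were higher and 4 lower in plasma cells, beside 33.3% and 37.8% of all genes. The 4 were Vcam1 and, by log2 differences of -3.85, -2.60 and -4.18, C1qa, C1qb and C1qc. In plasmablasts 8 were lower and 2 (S100a8 and S100a9) higher, beside 37.8% and 35.3% of all genes. Lyz2 stood at 12.07 in naive B cells, 10.00 in plasmablasts and 15.33 in plasma cells. The 6 tested markers of red cells and platelets summed to 23434 to 31724 in naive B cells and were all below background in both LPS groups. The 6 tested T and NK cell markers summed to 328 to 355 in naive B cells, 843 to 1370 in plasmablasts and 3732 to 3925 in plasma cells. Of these 6, 5 were below background on both naive B cell arrays, so that sum is near the floor. On all plasmablast arrays 2 (Cd3e and Klrb1c) were below background, and on both plasma cell arrays 0.

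In plasmablasts, most proteasome genes were more abundant than in naive B cells. Of the 40 genes, 29 were higher and 5 lower, a share of 72.5% higher and 12.5% lower. Across all 7425 genes the same test called 35.3% higher and 37.8% lower, 73.1% in either direction. The median log2 difference was 0.43 over the proteasome genes and -0.02 over all genes. On single arrays, the median gene stood 0.46, 0.41 and 0.46 above its naive mean on the 3 plasmablast arrays. The largest rise among the 40 genes was that of the activator gene Psme4 (2.6-fold), and the largest fall that of the immunoproteasome gene Psmb10 (2.05-fold lower). The differences were modest in size, and 5 of the 29 rises were at least 2-fold. Over all 7425 genes, 1149 of the 2619 called rises were at least 2-fold, a larger share.

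**Figure D1:**
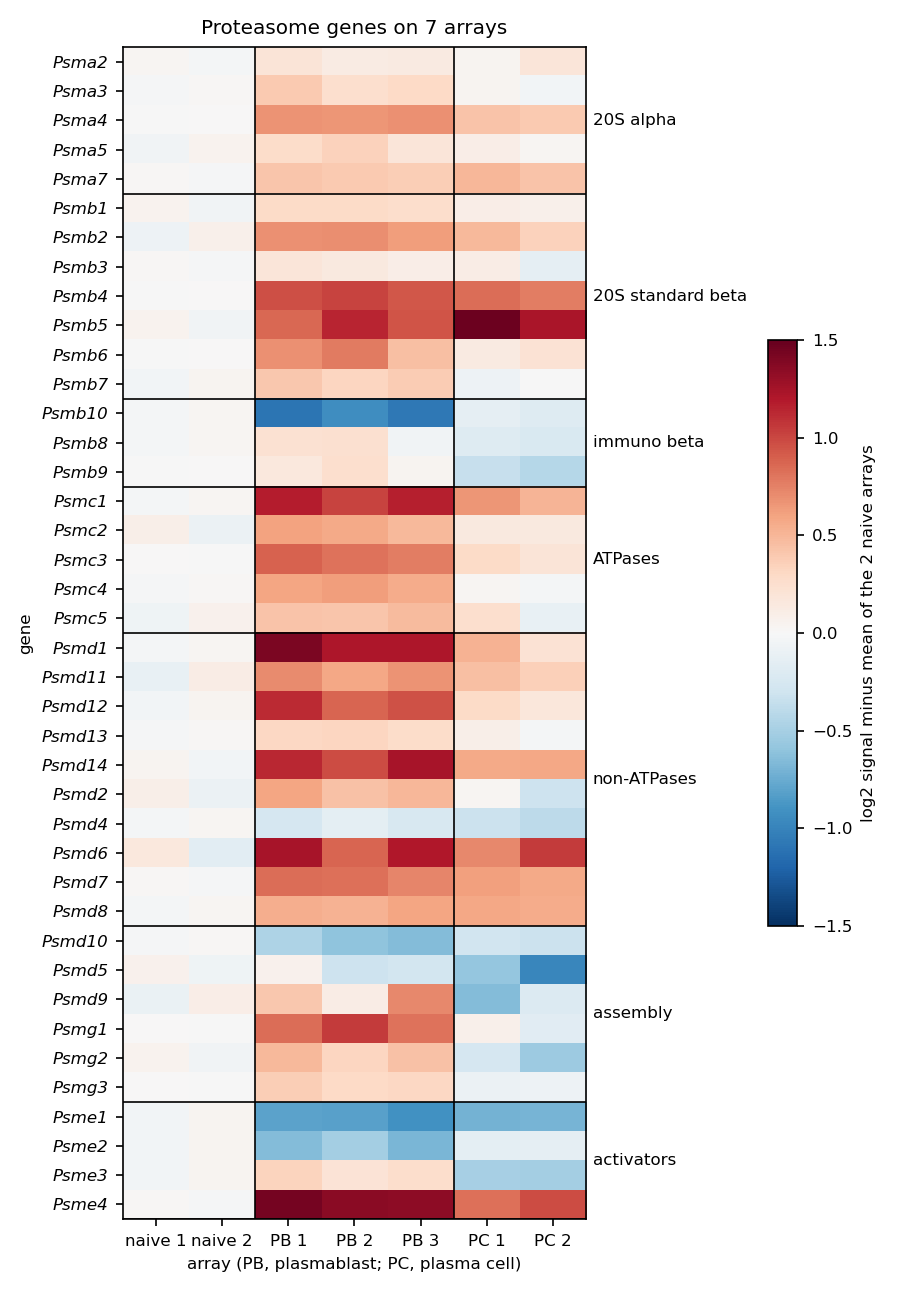
Each row is 1 of the 40 proteasome genes, grouped by role, and each column 1 array (naive, naive B cells; PB, plasmablasts; PC, plasma cells). Color is the log2 signal minus the gene's mean on the 2 naive B cell arrays. Red covers most core and regulatory rows on the plasmablast arrays and is paler on the plasma cell arrays, while Psmb10, Psmd10, Psme1 and Psme2 are blue on the plasmablast arrays.

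Most measured alpha ring genes of the core particle rose in plasmablasts. Of 5 measured alpha genes, 4 were higher in plasmablasts and 0 lower (median log2 difference 0.32), beside 35.3% and 37.8% of all genes. In plasma cells 2 were higher (median 0.12), where 33.3% of all genes were called higher. One of the 4, Psma5, lost its plasmablast call in 4 of 14 settings (0.27, adjusted p = 0.0269, up to 0.156). Psma4 stood at 12.84 and 12.86 in naive B cells, 13.52, 13.51 and 13.54 in plasmablasts and 13.28 and 13.24 in plasma cells. The 3 groups did not overlap, and the plasma cells lay between the others. The plasmablast difference was 0.67 (SE 0.08, adjusted p = 7.88e-05), and plasma cells were 0.26 below plasmablasts (log2 difference -0.26, adjusted p = 0.0143). That call was lost under cyclic loess (-0.031, adjusted p = 0.737) and without plasma cell replicate 2 (adjusted p = 0.0564). Psma7 was at 12.27 and 12.22 in naive B cells, 12.67, 12.64 and 12.61 in plasmablasts and 12.74 and 12.67 in plasma cells. Both LPS groups lay above naive B cells, by 0.40 (adjusted p = 0.00204) and 0.46 (adjusted p = 0.00152), and the difference between them was 0.07 (adjusted p = 0.445). Psma3 was higher in plasmablasts by 0.32 (adjusted p = 0.00953, or 0.0510 without naive B cell replicate 1), whereas in plasma cells its difference from naive B cells had an adjusted p of 0.994. Psma2 had a plasmablast difference of 0.15 (adjusted p = 0.146).

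The standard beta subunits held the largest rises of the core particle. Of 7 genes, 6 were higher in plasmablasts, 3 were higher in plasma cells, and 0 were lower in either, with medians of 0.64 and 0.17. Over all genes 35.3% were called higher in plasmablasts and 33.3% in plasma cells, and 37.8% lower in each. Psmb5, the chymotrypsin-like catalytic subunit that myeloma drugs such as bortezomib bind, had levels of 10.69 and 10.58 in naive B cells, 11.50, 11.78 and 11.58 in plasmablasts, and 12.10 and 11.85 in plasma cells. Its groups did not overlap, and plasma cells were the highest. The rise was 1.98-fold in plasmablasts (log2 0.98, SE 0.12, adjusted p = 0.000114) and 2.54-fold in plasma cells (log2 1.34, SE 0.13, adjusted p = 3.63e-05). Plasma cells exceeded plasmablasts by 0.36 (adjusted p = 0.0241), the only such call among the 27 standard core and regulatory genes with Psm symbols. That call was lost under 75th percentile scaling and when plasmablast replicate 1, plasmablast replicate 3 or plasma cell replicate 1 was left out (adjusted p up to 0.170). In the scanner signals as deposited, before any normalization, Psmb5 read 1800 and 1817 in naive B cells, 2572, 3169 and 2975 in plasmablasts, and 5245 and 4671 in plasma cells. These signals were not scaled between arrays. Their median over all probes was 153, 160 and 161 on the plasmablast arrays and 186 and 185 on the plasma cell arrays. Psmd8, with a normalized difference of 0.01 between the LPS groups, read 5243, 5227 and 5736 against 7041 and 7213.

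Psmb6, the caspase-like catalytic subunit, read 12.24 and 12.26 in naive B cells, 12.93, 13.03 and 12.70 in plasmablasts, and 12.38 and 12.46 in plasma cells. Plasmablasts were 0.64 above naive B cells (adjusted p = 0.000962), and plasma cells lay 0.46 below plasmablasts (log2 difference -0.46, adjusted p = 0.00535), which became -0.24 and was not called under cyclic loess (adjusted p = 0.0823). Psmb7, the trypsin-like subunit, read 12.65 and 12.74, then 13.10, 13.02 and 13.08, then 12.63 and 12.70 on the arrays in the same order. Its plasmablast difference was 0.37 (adjusted p = 0.00354). The plasma cell difference from naive B cells depended on the probe: it was -0.04 for the brightest of 3 probes (adjusted p = 0.739 over all probes) and 0.39 and 0.50 for the others (adjusted p = 0.00696 and 0.0105). Psmb4, a structural beta subunit, was higher by 0.97 in plasmablasts (adjusted p = 1.11e-05) and by 0.80 in plasma cells (adjusted p = 7.11e-05). Psmb2 showed differences of 0.67 and 0.42 (adjusted p = 0.000232 and 0.00579).

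No immunoproteasome subunit was called higher than in naive B cells in the quantile normalized data. Of 3 genes, 0 were higher and 1 was lower in plasmablasts, and 0 were higher and 1 was lower in plasma cells, a share near the 37.8% of all genes called lower in each comparison. Psmb10, which takes the place of Psmb7, stood at 12.29 and 12.34 in naive B cells, 11.22, 11.38 and 11.24 in plasmablasts, and 12.18 and 12.12 in plasma cells. Plasmablasts were the lowest with no overlap, and plasma cells lay close under naive B cells. Psmb10 was 2.05-fold lower in plasmablasts than in naive B cells (log2 difference -1.03, SE 0.09, adjusted p = 1.32e-05) and 1.83-fold higher in plasma cells than in plasmablasts (0.87, SE 0.09, adjusted p = 4.44e-05). Its plasma cell difference from naive B cells was -0.16 (adjusted p = 0.162). The second Psmb10 probe gave -1.06, 0.95 and -0.11 for the same comparisons. Scanner signals of Psmb10 were 4898 and 5419 in naive B cells, 2105, 2442 and 2341 in plasmablasts, and 5559 and 5527 in plasma cells, so the low plasmablast values were in the deposited readings. These signals were not scaled between arrays either. Medians over all probes, in the same order, were 170 and 169, then 153, 160 and 161, then 186 and 185. The naive B cell and plasma cell arrays, where Psmb10 was high, were also those with the higher summed macrophage and neutrophil signal (at least 24772, against at most 6537 in plasmablasts), and the part of those cells in the Psmb10 difference was not tested.

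Psmb9, which takes the place of Psmb6, read 13.14 and 13.15 in naive B cells, 13.30, 13.40 and 13.19 in plasmablasts, and 12.80 and 12.71 in plasma cells. Its plasmablast difference was 0.15 (adjusted p = 0.168), which became 0.45 and was called under 75th percentile scaling (adjusted p = 0.00521). Psmb9 was lower in plasma cells by a log2 difference of -0.39 from naive B cells (adjusted p = 0.00837) and of -0.54 from plasmablasts (adjusted p = 0.000864). The fall from naive B cells was not called under 75th percentile scaling (adjusted p = 0.105) or cyclic loess (adjusted p = 0.0719). Psmb8, which takes the place of Psmb5, read 10.50 and 10.56 in naive B cells, 10.77, 10.78 and 10.48 in plasmablasts, and 10.34 and 10.30 in plasma cells. Naive B cells and plasmablasts overlapped, and neither LPS group was called against naive B cells (adjusted p = 0.270 and 0.144). Psmb8 was 0.36 lower in plasma cells than in plasmablasts (log2 difference -0.36, adjusted p = 0.0179), a call lost without either plasma cell array, without plasmablast replicate 1 or 2, or under cyclic loess (adjusted p up to 0.222).

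Within each array, the immunoproteasome subunit was set against the standard subunit it replaces, relative to naive B cells. Psmb8 minus Psmb5 changed by -0.84 ± 0.19 (SD, n = 3) in plasmablasts and by -1.56 ± 0.14 (n = 2) in plasma cells. Psmb9 minus Psmb6 changed by -0.49 ± 0.07 and -0.56 ± 0.12. Psmb10 minus Psmb7 changed by -1.40 ± 0.13 in plasmablasts and by -0.12 ± 0.10 in plasma cells. With the other Psmb7 probes, an alternative chosen after seeing the data, the change was -1.61 and -1.81 in plasmablasts and -0.55 and -0.66 in plasma cells. With the brightest probes, all 5 LPS arrays lay below both naive B cell arrays for all 3 pairs. These within-array differences show unequal change of the paired transcripts and, as probes differ, not the ratio of the subunits. They are given as a description, without a test.

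**Figure D2:**
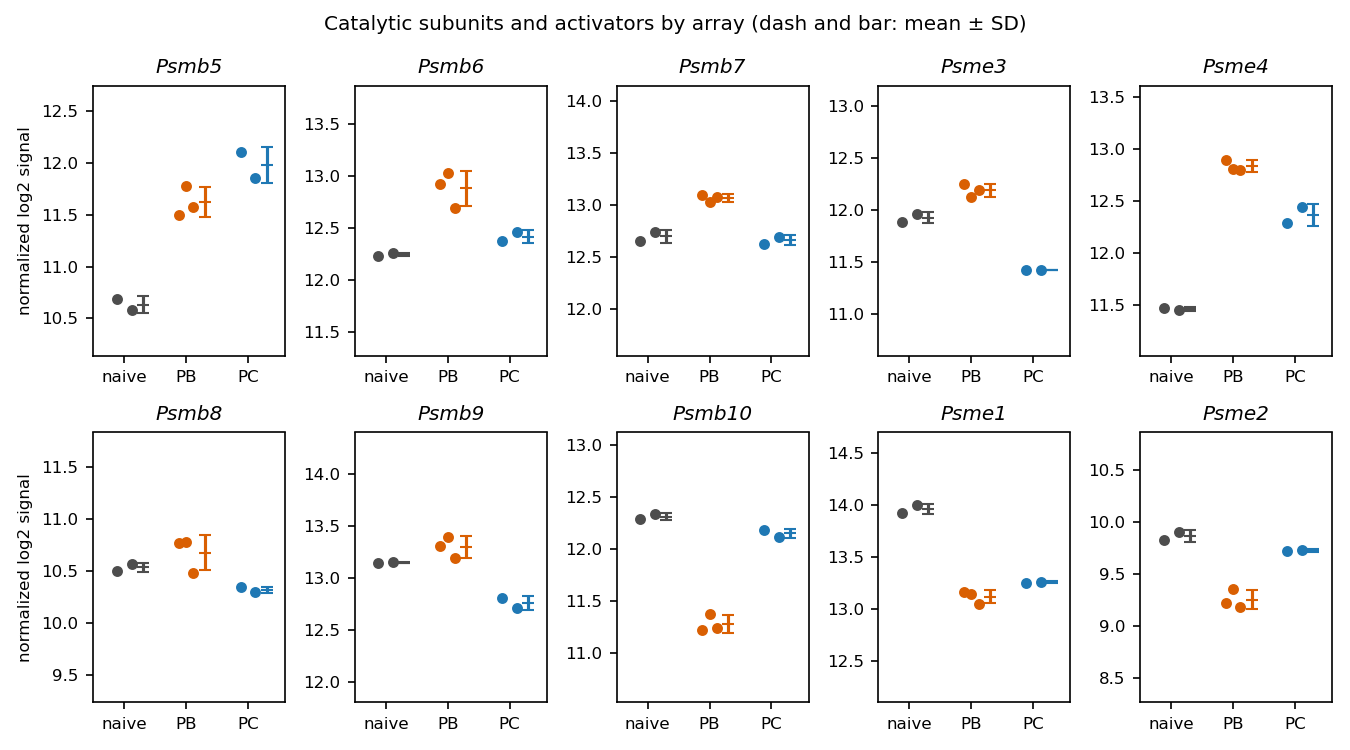
Normalized log2 signal of the catalytic subunits and activators on each array, in naive B cells, plasmablasts (PB) and plasma cells (PC), with each group's mean ± SD beside the points. Every panel spans the same log2 range. Psmb5 and Psme4 are lowest in naive B cells, while Psmb10 and Psme2 are lowest in plasmablasts.

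The regulatory particle showed the broadest rise in plasmablasts. Of its 15 measured genes with Psm symbols, 14 were higher and 1 lower in plasmablasts, beside 35.3% higher and 37.8% lower over all genes. The median log2 difference was 0.66. In plasma cells 8 were higher and 1 lower (median 0.24), beside 33.3% higher and 37.8% lower over all genes (71.1% called in either direction). All 5 measured ATPase genes, which unfold the substrate, were higher in plasmablasts (median 0.59), and 2 of them were higher in plasma cells. The plasmablast difference of Psmc5 was 0.44 (adjusted p = 0.00951) and was not called in 1 of 14 settings. A second Psmc5 probe gave 0.30, which was not called (adjusted p = 0.0746 over all probes). Psmc1 read 10.61 and 10.68 in naive B cells, 11.82, 11.66 and 11.81 in plasmablasts, and 11.31 and 11.15 in plasma cells. Its groups were fully apart, with plasma cells between the other groups. The rise was 2.17-fold in plasmablasts (log2 1.12, SE 0.09, adjusted p = 1.34e-05) and 1.5-fold in plasma cells (log2 0.59, SE 0.10, adjusted p = 0.00117). Psmc3 was higher by 0.82 in plasmablasts (adjusted p = 4.04e-05) and by 0.24 in plasma cells (adjusted p = 0.0415), the latter not called in 8 of 14 alternative settings (adjusted p up to 0.154). Psmc4 read 12.07 and 12.12, then 12.68, 12.72 and 12.65, then 12.12 and 12.06. Plasma cells overlapped naive B cells for this gene, and plasmablasts were higher than either by 0.59 (adjusted p = 0.000209 against naive B cells and 0.000224 against plasma cells).

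Among the 10 measured non-ATPases, 9 were higher in plasmablasts and 6 in plasma cells, with medians of 0.73 and 0.38. The shares called higher over all genes were 35.3% and 33.3%. Psmd1, the large scaffold of the base, stood at 8.71 and 8.76 in naive B cells, 10.14, 9.95 and 9.95 in plasmablasts, and 9.26 and 8.94 in plasma cells. All 3 groups were apart. It was 2.43-fold higher in plasmablasts (log2 1.28, SE 0.12, adjusted p = 2.08e-05), and plasma cells were 0.91 below plasmablasts (log2 difference -0.91, adjusted p = 0.000176). Psmd14, the deubiquitinase that removes ubiquitin chains as substrates enter, read 10.58 and 10.50, then 11.67, 11.51 and 11.77, then 11.10 and 11.12. The rises were 2.16-fold in plasmablasts (adjusted p = 1.75e-05) and 1.49-fold in plasma cells (adjusted p = 0.00166). Psmd6, a lid subunit with a dim probe, read 6.68 and 6.37, then 7.76, 7.39 and 7.73, then 7.24 and 7.57. Both LPS groups lay above naive B cells, by 1.10 (SE 0.16, adjusted p = 0.000338) and 0.88 (SE 0.18, adjusted p = 0.00219), and overlapped each other. Both calls were kept in all 14 settings, but the sizes fell to as little as 0.56 and 0.43.

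Of the remaining non-ATPases, the lid subunits Psmd7, Psmd8, Psmd11, Psmd12 and Psmd13 and the base subunit Psmd2 were higher in plasmablasts by 0.30 to 0.98. Leaving out naive B cell replicate 1 ended the call of Psmd13 (adjusted p = 0.0550), and leaving out replicate 2 that of Psmd2 (adjusted p = 0.0503). The lid gene Psmd8 stood 0.55 above naive B cells in plasmablasts and 0.56 in plasma cells (adjusted p = 0.000318 and 0.000523), and the LPS groups differed by 0.01 (SE 0.08, adjusted p = 0.877). Psmd4, a ubiquitin receptor, went the other way. It read 12.92 and 12.98 in naive B cells, 12.70, 12.80 and 12.71 in plasmablasts, and 12.63 and 12.56 in plasma cells. The plasmablast difference of -0.21 (adjusted p = 0.0452) became 0.06 (adjusted p = 0.546) under 75th percentile scaling and was not called in 8 of 14 settings. The plasma cell difference of -0.35 (adjusted p = 0.00789) kept its sign in all 14 and was not called under 75th percentile scaling or cyclic loess (adjusted p up to 0.0940).

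**Figure D3:**
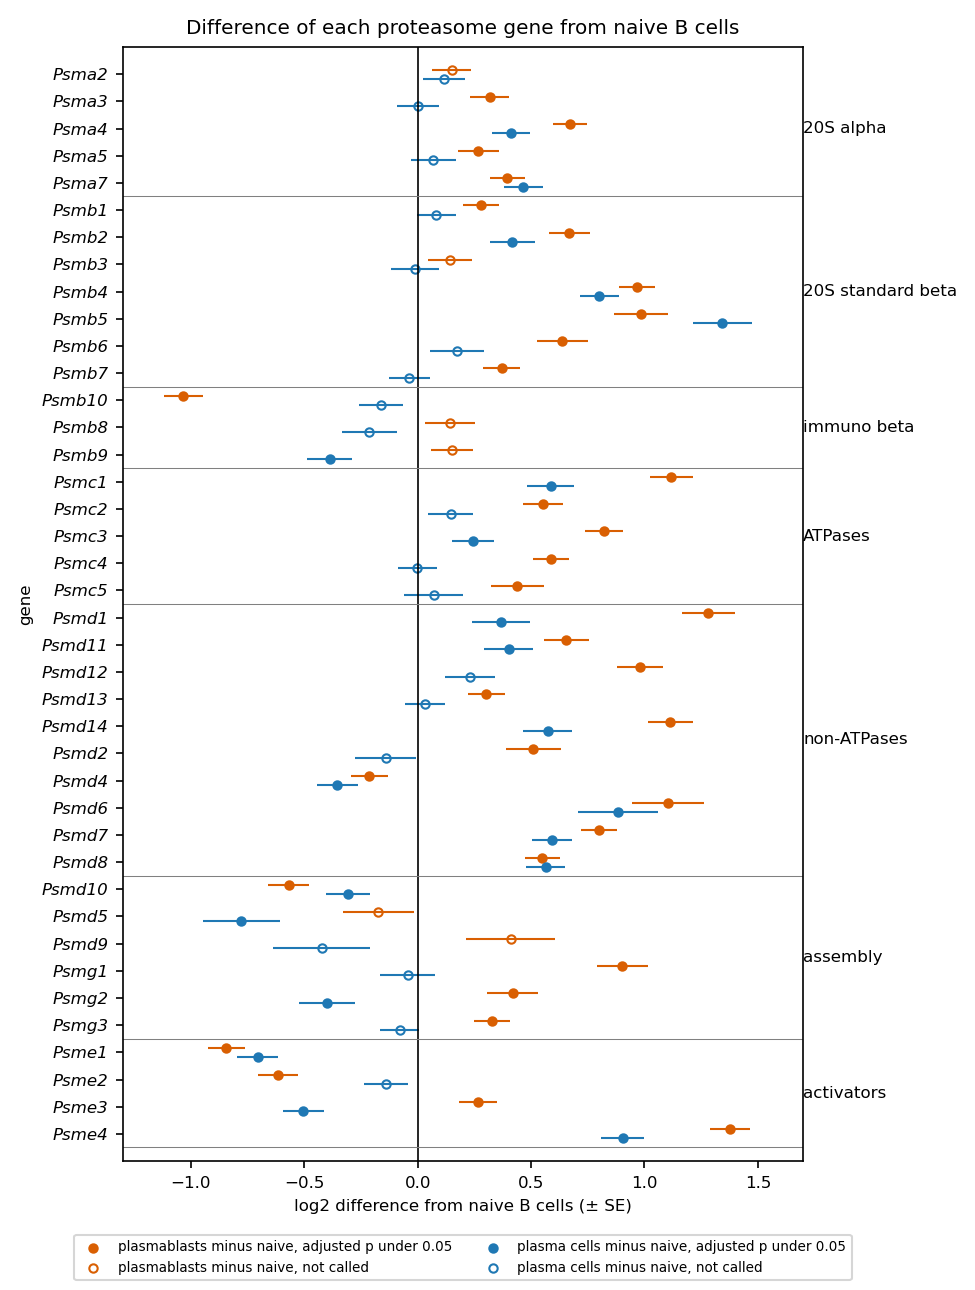
Log2 difference of plasmablasts (orange) and plasma cells (blue) from naive B cells for each of the 40 proteasome genes, with the SE of the limma fit as bars. Filled points have an adjusted p under 0.05, and both series share the same 2 naive B cell arrays. For most core and regulatory genes the orange point lies to the right of the blue one, and for Psmb5 to its left.

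The assembly chaperones were high in plasmablasts only in part. Of 6 genes, 3 were higher and 1 lower in plasmablasts (median 0.37), and 0 higher and 3 lower in plasma cells (median -0.35). The shares over all genes were 35.3% and 37.8% in plasmablasts and 33.3% and 37.8% in plasma cells. Psmg1, which pairs with Psmg2 to build the alpha ring, read 8.95 and 8.94 in naive B cells, 9.78, 10.00 and 9.76 in plasmablasts, and 9.02 and 8.78 in plasma cells. Plasmablasts stood alone, 1.87-fold above naive B cells (adjusted p = 0.000134) and 1.93-fold above plasma cells (adjusted p = 0.000112). Psmg2 read 10.08 and 9.99, then 10.52, 10.36 and 10.48, then 9.79 and 9.49. It was higher in plasmablasts by 0.42 (adjusted p = 0.00923) and lower in plasma cells by a log2 difference of -0.40 (adjusted p = 0.0182). The plasmablast difference no longer passed when naive B cell replicate 2 was left out (adjusted p = 0.0598), nor the plasma cell difference without naive B cell replicate 1, without plasma cell replicate 2 and under cyclic loess (adjusted p up to 0.106). Psmd9, a chaperone of the ATPase ring, read 7.16 and 7.35, then 7.66, 7.36 and 7.98, then 6.61 and 7.06. Its plasmablast difference from naive B cells was 0.41 (not called, adjusted p = 0.0918), and a second probe gave 0.62 (adjusted p = 0.00825 over all probes). Plasma cells were 0.83 below plasmablasts (log2 difference -0.83, adjusted p = 0.00505) for the first probe, and the second probe gave -0.23 (adjusted p = 0.225). The call of the first probe was lost under cyclic loess and without plasma cell replicate 1 (adjusted p up to 0.0507). Psmd10 (gankyrin), another chaperone of the ATPase ring, was lower in plasmablasts by a log2 difference of -0.57 (adjusted p = 0.000528) and in plasma cells by -0.31 (adjusted p = 0.0218), though its probes did not share the plasma cell call and 6 of 14 settings lost it (adjusted p up to 0.361). Psmd5 was lower in plasma cells by -0.78 (adjusted p = 0.00364).

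Of the 4 activator genes, 2 were higher and 2 lower in plasmablasts, and 1 was higher and 2 lower in plasma cells. The shares of all genes called higher and lower were 35.3% and 37.8% in plasmablasts and 33.3% and 37.8% in plasma cells. Counts of so few genes are not far from these shares. Psme4 (PA200), a single-chain nuclear activator linked to chromatin and histone degradation, stood at 11.47 and 11.45 in naive B cells, 12.90, 12.81 and 12.80 in plasmablasts, and 12.29 and 12.44 in plasma cells. The groups were apart, with plasma cells between the others. Psme4 was 2.6-fold higher in plasmablasts (log2 1.38, SE 0.09, adjusted p = 2.51e-06) and 1.87-fold higher in plasma cells (log2 0.90, SE 0.10, adjusted p = 6.01e-05). Psme3, which forms the nuclear PA28 gamma ring, read 11.89 and 11.96, then 12.25, 12.12 and 12.19, then 11.42 and 11.42. It was higher in plasmablasts by 0.27 (adjusted p = 0.0194) but was no longer called when the fit left out naive B cell replicate 1 (adjusted p = 0.104) or plasmablast replicate 1 (adjusted p = 0.0611). It was 1.42-fold lower in plasma cells than in naive B cells (adjusted p = 0.00130).

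Psme1 and Psme2 form the interferon-inducible PA28 alpha-beta ring that works with the immunoproteasome. Psme1 read 13.93 and 14.00 in naive B cells, 13.16, 13.14 and 13.05 in plasmablasts, and 13.25 and 13.26 in plasma cells. Both LPS groups lay well below naive B cells, 1.80-fold in plasmablasts (log2 difference -0.84, adjusted p = 3.03e-05) and 1.63-fold in plasma cells (-0.71, adjusted p = 0.000179). Psme2 read 9.82 and 9.91, then 9.21, 9.35 and 9.18, then 9.72 and 9.73. It was 1.53-fold lower in plasmablasts than in naive B cells (adjusted p = 0.000327) and 1.39-fold lower than in plasma cells (adjusted p = 0.00146). The order of group means, naive B cells above plasma cells above plasmablasts, was shared by 4 of the 40 genes: Psmb10, Psme1, Psme2 and Psmd10. The summed macrophage and neutrophil signal was also lowest in plasmablasts, at 2430 to 6537, but highest in plasma cells, at 59449 to 60701, and its part in these differences was not tested.

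Promoters of 36 of the 42 genes were found in the RefSeq table (GRCm38.p6), as 39 windows of 250 bases before to 50 after the annotated start. The 3 motifs searched on both strands were the antioxidant response element bound by Nfe2l1 and Nfe2l2 (TGACNNNGC), the interferon-stimulated response element (GAAA and GAAA with any 2 bases between them) and the gamma-activated site bound by STAT dimers (TTCNNNGAA). The first occurred in 12.8% of the 39 windows and in 12.4% of all 32851 promoter windows of the same length, the second in 10.3% against 3.44%, and the third in 7.69% against 8.30%. These shares rest on 5, 4 and 3 of the 39 windows. The first was in Psmb5, Psmb6, Psmd12, Psmd9 and Psme4. The second was in Psmb3, Psmd4, Psmd9 and Psme1, and the third in Psmb8, Psmd2 and Psmg1. The 4 promoters below are those of Psmb5 (chr14:54617946-54618245, minus strand) and Psme4 (chr11:30771525-30771824, plus strand), which rose, of Psme1 (chr14:55578244-55578543, plus strand), which fell, and of Psmb8 (chr17:34197945-34198244, plus strand), the immunoproteasome counterpart of Psmb5, which was not called against naive B cells. Capitals mark the motif match, an antioxidant response element in Psmb5 and Psme4, a gamma-activated site in Psmb8 and an interferon-stimulated response element in Psme1. Most of the 36 genes, among them most that rose, held no match of the 3 motifs, so the 4 shown are not typical. Psmb3, with an interferon-stimulated response element, was not called against naive B cells. Psmd9, with a match of that motif and of the antioxidant response element, was not called by its brighter probe (plasmablasts 0.41, adjusted p = 0.0918). Its second probe was called higher in plasmablasts (0.62, adjusted p = 0.00825 over all probes). Each of the 4 windows shown held 1 match, so matched stretches of different motifs could not overlap in them. A match is a stretch of letters, not a shown binding site.
Psmb5: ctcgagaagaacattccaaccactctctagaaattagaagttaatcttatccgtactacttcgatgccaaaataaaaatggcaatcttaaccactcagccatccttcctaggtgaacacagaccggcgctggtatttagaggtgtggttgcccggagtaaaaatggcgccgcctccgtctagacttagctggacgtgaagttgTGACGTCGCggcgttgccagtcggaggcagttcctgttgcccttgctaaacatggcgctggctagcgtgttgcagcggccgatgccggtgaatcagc
Psme4: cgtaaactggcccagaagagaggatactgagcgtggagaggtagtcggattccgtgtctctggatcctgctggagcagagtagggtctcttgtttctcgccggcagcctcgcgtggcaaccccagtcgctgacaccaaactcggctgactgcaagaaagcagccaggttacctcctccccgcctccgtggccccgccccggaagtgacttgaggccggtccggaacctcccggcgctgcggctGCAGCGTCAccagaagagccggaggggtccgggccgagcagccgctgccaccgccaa
Psmb8: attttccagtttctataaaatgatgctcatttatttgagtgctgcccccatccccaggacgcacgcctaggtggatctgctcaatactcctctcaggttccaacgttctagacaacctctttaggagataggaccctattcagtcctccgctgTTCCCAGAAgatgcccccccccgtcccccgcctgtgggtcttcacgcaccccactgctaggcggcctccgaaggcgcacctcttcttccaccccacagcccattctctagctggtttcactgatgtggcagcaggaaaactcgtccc
Psme1: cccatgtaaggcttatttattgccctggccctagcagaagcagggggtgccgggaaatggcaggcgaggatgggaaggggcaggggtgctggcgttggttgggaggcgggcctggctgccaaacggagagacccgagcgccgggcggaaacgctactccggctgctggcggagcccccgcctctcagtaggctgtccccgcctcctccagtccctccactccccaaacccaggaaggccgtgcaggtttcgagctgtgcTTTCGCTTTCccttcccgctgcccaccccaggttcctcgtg

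Fewer proteasome genes were called higher in plasma cells than in plasmablasts when each was set against the same 2 naive B cell arrays. Of the 40 genes, 14 were higher and 7 lower in plasma cells than in naive B cells, beside 33.3% higher and 37.8% lower over all genes, and the median difference was 0.07 against -0.08 over all genes. On single arrays, the median gene stood 0.10 and 0.01 above its naive mean on the 2 plasma cell arrays. Compared directly with plasmablasts, plasma cells had 4 genes higher and 26 lower, beside 28.7% higher and 46.0% lower over all genes (74.7% called in either direction). The 4 higher genes were Psmb5, Psmb10, Psme2 and Psmd10, and the count was 2 without plasmablast replicate 3 and also without plasma cell replicate 1. The median was -0.34 over the proteasome genes and -0.22 over all genes. Cyclic loess, which centred all genes at -0.01 in this comparison, left a median of -0.15 for the proteasome genes, with 7 higher and 12 lower. Under that scaling 52.5% of the calls over all genes were higher, against 38.4% in the quantile normalized data. All plasma cell values come from arrays with the highest summed macrophage and neutrophil signal, and the share of proteasome RNA from such cells was not tested.

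**Figure D4:**
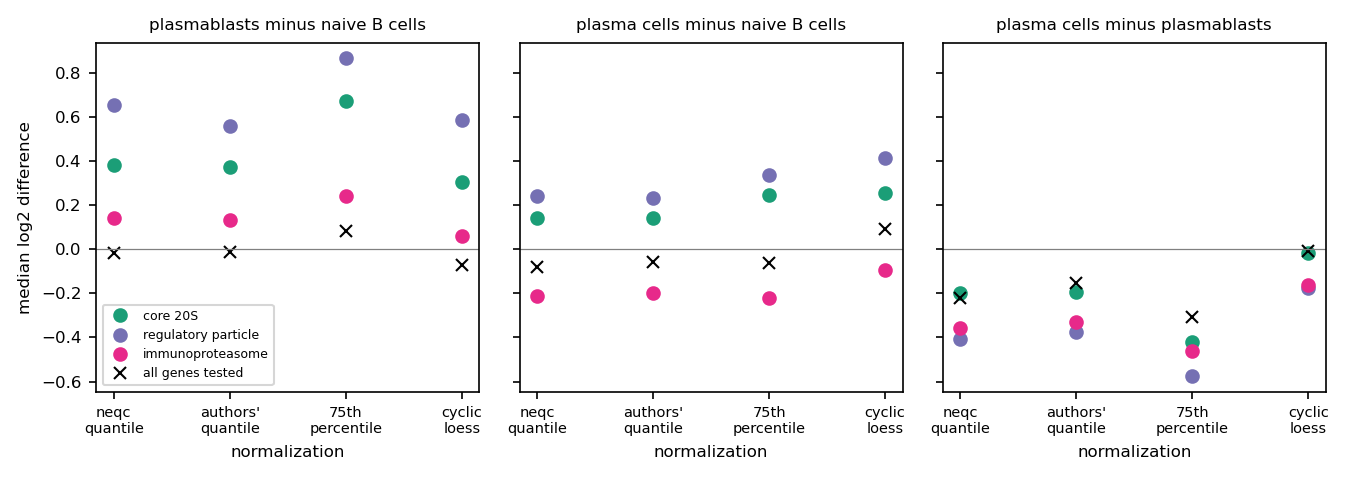
Median log2 difference of the core particle (12 genes), the regulatory particle (15 genes) and the immunoproteasome (3 genes) in the 3 comparisons under 4 normalizations, with the median of all 7425 genes as crosses. In plasmablasts the regulatory and core medians lie above the crosses under every normalization. Between plasma cells and plasmablasts all medians move up under cyclic loess, and the core median meets the cross.

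Genes of the proteasome and its partners outside the Psm symbols were taken from a fixed list, of which 15 of 27 genes were tested. In plasmablasts 8 were higher and 2 lower (median 0.35), and in plasma cells likewise 8 and 2 (median 0.28), beside the shares over all genes of 35.3% and 37.8%, and of 33.3% and 37.8%. Vcp, the ATPase that extracts ubiquitinated proteins from membranes, rose 2.82-fold in plasmablasts (adjusted p = 1.10e-06) and 1.95-fold in plasma cells (adjusted p = 2.73e-05). Its cofactor gene Nploc4 rose 2.78-fold and 1.95-fold (adjusted p = 9.92e-06 and 0.000251), and the shuttle receptor gene Rad23b rose 2.44-fold and 1.33-fold (adjusted p = 7.67e-06 and 0.00922). Pomp, which matures the beta rings and is needed for immunoproteasome assembly, rose 1.33-fold and 1.32-fold (adjusted p = 0.00264 and 0.00515). Between plasma cells and plasmablasts, 2 genes of the list were higher and 9 lower, beside 28.7% and 46.0% of all genes. Sem1 was 1 of the 2, higher by 0.47 (adjusted p = 0.00189). It was 0.66 above naive B cells in plasma cells (adjusted p = 0.000509) and not called in plasmablasts (0.19, adjusted p = 0.0951).

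Nfe2l1, the transcription factor that restores proteasome gene expression when the proteasome is inhibited, read 10.86 and 10.98 in naive B cells, 10.95, 10.88 and 11.05 in plasmablasts, and 11.14 and 11.21 in plasma cells. Naive B cells and plasmablasts overlapped (difference 0.05, adjusted p = 0.670), and plasma cells were 0.26 above naive B cells (adjusted p = 0.0437). Nfe2l2, the oxidative stress factor, was below background on all plasmablast arrays, at least 1.66-fold lower than in naive B cells (adjusted p = 6.90e-05). In plasma cells it was 4.11-fold higher than in naive B cells (adjusted p = 6.16e-06), on the arrays with the highest summed macrophage and neutrophil signal.

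Genes that work beside the immunoproteasome were examined with 2 further lists. All 10 tested interferon regulators were lower in plasmablasts than in naive B cells (median -1.04), a direction called for 37.8% of all genes, and in plasma cells 3 were higher and 4 lower (median -0.22), near the 33.3% and 37.8% over all genes. Irf1, which drives immunoproteasome genes after interferon, read 13.12 and 12.82, then 12.31, 12.19 and 12.43, then 12.94 and 12.78. Plasmablasts were the lowest, 1.58-fold under naive B cells (adjusted p = 0.00135) and 1.47-fold under plasma cells (adjusted p = 0.00371). Irf8 was 3.65-fold lower in plasmablasts and 6.43-fold lower in plasma cells than in naive B cells (adjusted p = 2.58e-06 and 7.82e-07). Stat2 was 1.57-fold and 2.94-fold lower (adjusted p = 0.00170 and 2.16e-05). The kinase gene Jak1 was 3.09-fold lower in plasmablasts (adjusted p = 0.000666) and had a difference of -0.15 in plasma cells (adjusted p = 0.660). The receptor gene Ifngr1 was 7.04-fold lower in plasmablasts and 3.09-fold higher in plasma cells than in naive B cells (adjusted p = 2.93e-07 and 1.13e-05). The summed macrophage and neutrophil signal moved the same way as Ifngr1, lowest in plasmablasts (at most 6537) and highest in plasma cells (at least 59449). Irf8 and Stat2 were instead lowest in plasma cells, and the means of Irf1 and Jak1 were lowest in plasmablasts but highest in naive B cells. The part of that summed signal in the differences of this list was not tested.

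Of 11 tested genes of MHC class I antigen processing, 6 were higher and 0 lower in plasmablasts (median 0.33), and 4 were higher and 3 lower in plasma cells (median 0.13). Over all genes the shares were 35.3% and 37.8% in plasmablasts, and 33.3% and 37.8% in plasma cells, the latter near those of this list. The chaperone genes Calr and Pdia3, which also fold secreted glycoproteins, rose 6.65-fold and 3.54-fold in plasmablasts (adjusted p = 2.90e-07 and 8.01e-07) and 2.20-fold and 2.25-fold in plasma cells (adjusted p = 7.56e-05 and 1.99e-05). The peptide editor gene Tapbpl rose 2.18-fold and 1.72-fold (adjusted p = 7.97e-05 and 0.00131). In the RefSeq table Psmb9, Tap1, Psmb8 and Tap2 lie next to each other on chromosome 17, in that order, with 0 protein-coding genes between neighbours. The peptide transporter gene Tap1 read 10.20 and 10.11, then 10.33, 10.21 and 10.30, then 9.81 and 9.62. It had a plasmablast difference of 0.13 (adjusted p = 0.257) and was lower in plasma cells by -0.44 (adjusted p = 0.00509), beside 0.15 and -0.39 for its neighbour Psmb9. Tap2 was higher in plasmablasts by 0.65 (adjusted p = 0.000789) and had a difference of 0.22 in plasma cells (adjusted p = 0.128).

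Probes of the same gene mostly gave the same call. Of the 14 genes with more than 1 measured probe, including Psme3ip1, the probes shared a call in 12 genes for plasmablasts against naive B cells, in 10 for plasma cells against naive B cells and in 9 for plasma cells against plasmablasts. No gene had 1 probe called higher and another lower in any of the 3 comparisons (0 opposite calls). Among the genes outside the complex, Psmc3ip, a factor of homologous recombination, rose 3.71-fold in plasmablasts (8.56 and 8.81, then 10.65, 10.57 and 10.52, adjusted p = 4.33e-06) and read 9.13 and 8.75 in plasma cells, overlapping naive B cells. Psme3ip1, which binds Psme3, had differences of 0.02 and 0.09 from naive B cells (adjusted p = 0.850 and 0.407).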

How the data were processed

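The authors' deposited scanner table holds an intensity per probe and array, not normalized between arrays, and a detection p-value for each, per the file headers. Signals were exported with GenomeStudio 2011.1, per the submitters' processing notes. A second deposited table holds an intensity that matched quantile normalization of the scanner values to within 0.0119 log2 units, and served as an alternative. In R 4.3.3 with limma 3.58.1, neqc took background from the detection p-values (offset 16), followed by quantile normalization across the 7 arrays and a log2 transform. Symbols were updated by Entrez number (23962 of 23978 named probes) through the RefSeq table of GRCm38.p6, used for names, gene order and promoters. The probe with the highest mean stood for each gene. Means of the 3 groups were fitted with limma over 7425 genes (4 residual and 3.78 prior degrees of freedom), and a second one to all 10113 probes. Where every array of the lower group was below background, the fold is written as "at least", measured to the lowest signal above background on those arrays. The fit was run on simulated data drawn with its own variance estimates, which checks the code and not the spread on these arrays. The number of arrays limits the precision.

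Members and lists were chosen with earlier results of these data known. The text names Psmb5 to Psmb10, Psme1 to Psme4, the 3 called members of each other subgroup with the largest difference, up to 4 called genes of each further list, and Pomp, Nfe2l1, Tap1 and Irf1. Other members named, and Sem1, were chosen after their values were seen. Marker lists are given as sums of linear signals. Same-numbered arrays of different groups had deviations from the group means that correlated at -0.03 to 0.17, so the numbers were not taken as pairs. All arrays were on 1 slide.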

Additional observations from a re-analysis of the deposited data

How the results depend on the processing

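Over 126 gene comparisons (42 genes in 3 comparisons), 75 kept their direction and their side of the threshold in all 14 alternative settings. Across settings and gene comparisons, 104 values lost a call, 28 gained one and 2 changed sign with one side of the change called: Psmd4 in plasmablasts under 75th percentile scaling (0.064) and Psmb7 in plasma cells with a mean over probes (0.28). The cause of these changes was not tested.

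For plasmablasts against naive B cells, counts stayed within 24 to 29 higher and 4 to 5 lower when arrays were left out. The core median was 0.67 under 75th percentile scaling, 0.31 under cyclic loess and 0.51 with a mean over probes. The regulatory median was 0.56 in the authors' quantile values, 0.87 under 75th percentile scaling and 0.81 with a mean over probes, and 0.63 to 0.77 with an array left out. The immunoproteasome median was 0.24 under 75th percentile scaling and 0.061 under cyclic loess.

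For plasma cells against naive B cells, 4 genes were lower under 75th percentile scaling and 3 under cyclic loess. The core median was 0.25 under 75th percentile scaling, 0.26 under cyclic loess, 0.23 with a mean over probes and 0.12 to 0.20 with an array left out. The regulatory median was 0.34, 0.42 and 0.37 under the same 3 settings, and the immunoproteasome median -0.092 under cyclic loess.

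For plasma cells against plasmablasts, 75th percentile scaling gave 2 higher genes and medians of -0.42 (core), -0.57 (regulatory) and -0.46 (immunoproteasome). Cyclic loess gave 7 higher and 12 lower genes and medians of -0.016, -0.18 and -0.16. A mean over probes gave a regulatory median of -0.52. With an array left out, 2 to 4 genes were higher and 18 to 25 lower, and the medians ran from -0.26 to -0.17 (core), from -0.53 to -0.38 (regulatory) and from -0.45 to -0.30 (immunoproteasome).

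Same-numbered arrays shared only a number. With the replicate number as a block, 28 genes were higher and 4 lower in plasmablasts, 13 and 7 in plasma cells, and 2 and 21 between plasma cells and plasmablasts, with an immunoproteasome median of -0.45 in the last comparison. The calls lost with the block were those of Psme3 and Psmd4 in plasmablasts, of Psmc3 in plasma cells, and of Psma4, Psmb2, Psmb5, Psmc5, Psmd7, Psmd10 and Psmd11 between plasma cells and plasmablasts.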
